A study of Mus musculus with 12 samples.

Results

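Respiratory complexes III, IV and V were described here through the nuclear genes whose symbols begin with Uqcr, Cox4, Cox5, Cox6, Cox7, Cox8 or Atp5, together with Cyc1 and Cycs. The deposited table held 39 such genes among 10697. They comprised 9 genes of complex III, 12 of complex IV, 17 of complex V and Cycs, the gene of cytochrome c. The rule used symbols and no measured value.

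The cells were labelled as primary mouse adult fibroblasts (MAFs). They were wild-type cells grown out of tissue biopsies of C57BL6/j mice and cultured in high-glucose medium with serum. In the Thymol100 group they were exposed for 24 h to 100 µM thymol, a phenolic monoterpene of thyme, dissolved in DMSO. In the control group they received the same volume of DMSO alone for 24 h, so both groups carried the solvent. Each group held 6 libraries of QuantSeq, a method that sequences the 3′ end of polyadenylated transcripts. The labels did not say whether the libraries came from separate cultures or animals, so that the p-values below measure only the spread between these libraries. The age of the mice was not given in the sources used here.

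Complexes III, IV and V are the closing part of oxidative phosphorylation in the inner mitochondrial membrane. Complex III (ubiquinol–cytochrome c reductase) passes electrons from ubiquinol to the small soluble carrier cytochrome c, complex IV (cytochrome c oxidase) passes them on to oxygen, and both pump protons out of the matrix. Complex V (ATP synthase) lets the protons flow back and makes ATP. Most subunits are encoded in the nucleus and a few in mitochondrial DNA, and the genes are active in nearly every cell type.

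The 39 genes lie on 18 chromosomes as far as they could be placed, since 36 of them were matched to the RefSeq gene table of the mouse build GRCm38.p6. Genes of oxidative phosphorylation are known for short promoters read by NRF1, by ETS family factors such as GABP, and by YY1. The 250 bases before a listed start were available for 29 members, 3 of which (Atp5f1c, Atp5f1d and Atp5pf) had 2 listed starts. For 22 members each listed start was the start of the gene, and for the other 7 a listed start lay inside the gene's span. These bases were searched on both strands for the NRF1 core GCGCATGC (GCATGCGC on the other strand), the ETS core CCGGAAGT (ACTTCCGG) and the YY1 core AAGATGGC (GCCATCTT). The NRF1 core occurred in 4 of the 29 members (13.8%) and in 2.56% of all 27025 genes with a promoter. The ETS core occurred in 3 members (10.3%) and in 3.23% of all genes, and the YY1 core in 1 member (3.45%) and in 1.83% of all genes. Outside the span of the gene lay 7 of the 8 windows with a match, and these are printed because they show the letters these genes share and the letters in which they differ. Each line reads 5′ to 3′ on the gene's own strand, with the matched letters in capitals and up to 20 bases on either side, and in Atp5me and Cox6a1 the forms of both strands overlap in a single run of 10 letters. The first 4 lines hold the NRF1 core and the next 3 the ETS core.
Atp5me (chr5:108434420-108434469, minus strand): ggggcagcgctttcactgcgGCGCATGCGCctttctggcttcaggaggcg
Atp5mg (chr9:44920955-44920992, minus strand): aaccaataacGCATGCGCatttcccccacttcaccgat
Cox6a1 (chr5:115349091-115349140, minus strand): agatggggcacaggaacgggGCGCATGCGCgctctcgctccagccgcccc
Cycs (chr6:50566602-50566649, minus strand): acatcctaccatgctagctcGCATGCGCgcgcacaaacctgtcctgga
Atp5pd (chr11:115419931-115419978, minus strand): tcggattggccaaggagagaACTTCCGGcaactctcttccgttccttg
Uqcr11 (chr10:80406860-80406907, minus strand): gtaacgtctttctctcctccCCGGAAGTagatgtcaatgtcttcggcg
Uqcrh (chr4:116075071-116075101, minus strand): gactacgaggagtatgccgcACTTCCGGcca

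These 7 matches lay between 11 bases (Uqcrh) and 240 bases (Atp5mg) before the start of the gene. The YY1 core of Atp5pf preceded a listed start that lies 881 bases inside the gene. All are matches of letters, not sites at which a factor was measured.

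The libraries held between 5435985 and 9049796 reads over the genes of the table, as recovered from the deposited values. Of the markers of the labelled cell type, 9 of 10 fibroblast genes were listed, with a median level of 8.35 log2 CPM, that is, the base-2 logarithm of read counts scaled to a common library total (CPM). The culture also carried all 10 of the macrophage markers searched, with a median of 8.18. Summed over the list, fibroblast markers ran from 10324 to 10748 CPM with thymol and from 10965 to 12180 CPM with DMSO, and macrophage markers from 15002 to 18330 CPM and from 14976 to 16537 CPM. In each of these lists 2 genes passed the test (of 9 and of 10), all lower with thymol, where 2.22% of all genes passed. The sums of the macrophage markers overlapped between the groups, while those of the fibroblast markers lay apart, lower with thymol. In both groups the macrophage sums lay above the fibroblast sums, so that levels of members are levels of a mixed culture. Skeletal muscle markers were listed for 2 of 6 genes (93.2 to 125 CPM with thymol, 133 to 160 CPM with DMSO, ranges apart, 1 gene lower). Endothelial markers were listed for 1 of 4 (2.49 to 4.86 CPM and 2.03 to 5.18 CPM) and epithelial markers for 0 of 4. Odd- and even-numbered libraries were known to differ from earlier results of these data, so that members are also given within each set.

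In DMSO and thymol alike, most of these genes were among the well-expressed transcripts of the culture. Since QuantSeq reads each transcript once at its end, a level does not depend on gene length. Levels in log2 CPM can then be set beside each other between genes, with a limit where other genes share the transcript end. Such sharing was over 30% for 6 of the 34 members checked, as given below. Of the 39 members, 32 were above the 70th percentile of all genes, 25 above the 80th and 5 below the 50th. The median member stood at 7.14 log2 CPM and the median gene of the table at 5.02. All members together took 0.724% ± 0.0099 of the summed CPM with DMSO and 0.732% ± 0.017 with thymol, and the ranges overlapped. Here and below, ± values of group means are SDs over the 6 libraries of a group (n = 6) unless called SE.

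The comparison asked whether transcripts of these complexes differed after thymol. The study tested this compound on respiration in isolated mouse liver mitochondria and zebrafish larvae, and on mitochondrial membrane potential in MAFs. No member passed the test: 0 of 39 had a limma adjusted p-value under 0.05, and 0 did with limma's voom on recovered reads. Of all genes tested, 2.22% passed, so that 0 of 39 is near that share. Only Atp5if1 had an unadjusted p-value under 0.05, both in limma and with voom, which is 1 of 39 members (2.56%) where 11.8% of all genes did. The 6 thymol values overlapped the 6 DMSO values for each of the 39 members. They lay apart for 1.68% of all genes, so that 0 of 39 is near that share too. In bulk RNA of a mixed culture, fewer cells of a type and less RNA per cell cannot be told apart, and the part of the marker differences above in these values was not tested.

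The differences were also small. Mean levels were higher with thymol for 28 members and lower for 11, where 50.9% of all genes were higher. Once each library was centred on the median of all genes, the split was 24 to 15, where 47.5% of all genes were higher. With voom it was 29 to 10, where 50.7% were higher. In odd-numbered libraries alone 21 members were higher, and in even-numbered ones 25. The median log2 fold change (thymol minus DMSO) was 0.024 over the members and 0.0026 over all genes. It was 0.012 in complex III, where 6 of 9 were higher, 0.030 in complex IV (9 of 12) and 0.031 in complex V (13 of 17). Leaving out 1 library moved each median by less than the pooled SD of the complex mean between libraries (0.023, 0.044 and 0.064). The median stayed at 0.022 to 0.046 in complex IV and at 0.029 to 0.055 in complex V. Since the medians were near 0, small moves were large as ratios. In complex III the median was -0.00036 without DMSO replicate 1 and 0.028 without Thymol100 replicate 3, and it moved by over 1.5 times without any of Thymol100 replicates 1 and 5 and DMSO replicates 3, 4, 5 and 6. In complex IV it was 0.046 without DMSO replicate 4. In complex V it was 0.054 without Thymol100 replicate 2, 0.052 without DMSO replicate 1, 0.055 without DMSO replicate 2 and 0.050 without DMSO replicate 6.

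Intervals were wider for genes with a low level. The 95% confidence interval lay within a 1.2-fold change in either direction, a log2 fold change of ±0.26, for 29 members, comprising all 9 genes of complex III, 8 of 12 of complex IV and 12 of 17 of complex V. For the 34 members with a mean level above 5, log2 fold changes ran from -0.10 to 0.15 and their intervals reached from -0.26 to 0.28. For the 5 members at or below 5, the intervals reached from -0.38 to 0.87. By way of scale, 150 of the 3163 genes above a level of 6 passed the test, with a median absolute log2 fold change of 0.30 and a smallest one of 0.17, and 32 members were in this range of levels.

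**Figure D1:**
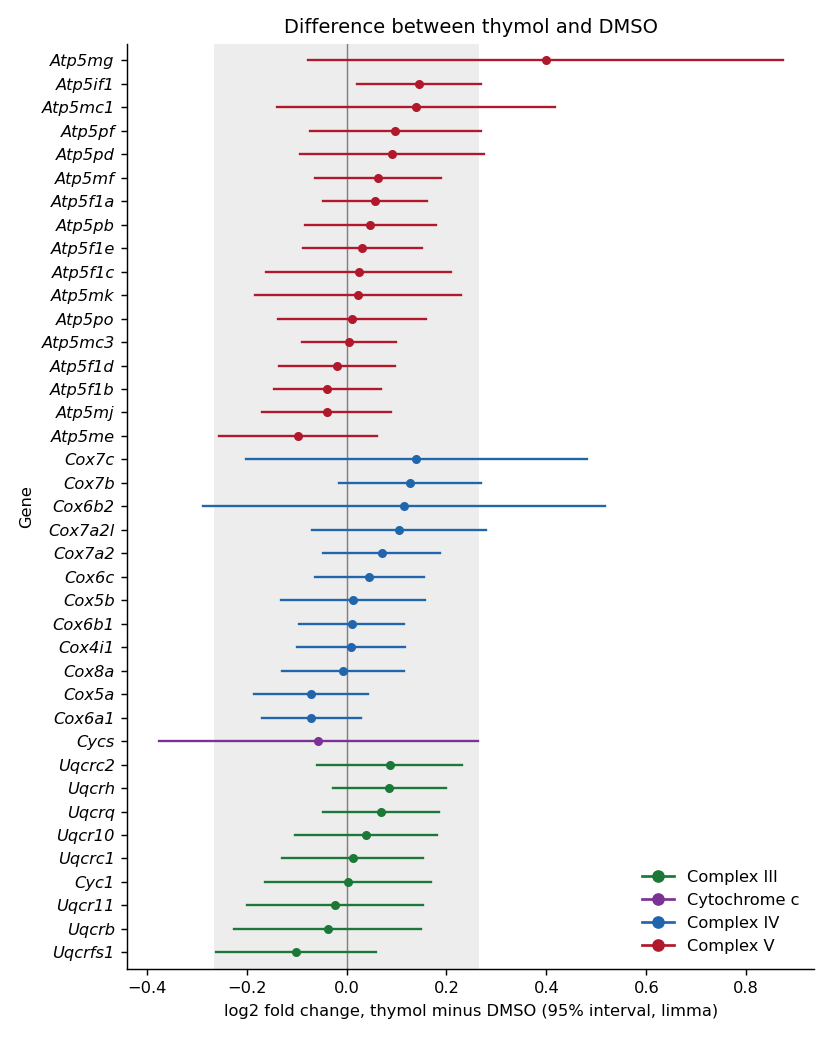
Log2 fold change (thymol minus DMSO) of each member with its 95% interval from limma, coloured by complex, and a grey band that marks a 1.2-fold change in either direction. Intervals of 29 members stay inside the band, and the interval of Atp5if1 alone does not reach 0 before adjustment.

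Complex III is built around 3 electron-carrying proteins, of which cytochrome b is mitochondrially encoded while the Rieske iron–sulfur protein (Uqcrfs1) and cytochrome c1 (Cyc1) are nuclear. Averaged over the 9 genes, the level per library was 6.83 ± 0.026 log2 CPM under thymol against 6.81 ± 0.019 in the controls, a difference of 0.015. The thymol libraries ran from 6.80 to 6.86 and the DMSO libraries from 6.79 to 6.84, so the groups overlapped over most of their range. The 9 genes took 0.124% of the summed CPM with thymol and 0.121% with DMSO.

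Uqcrh, the acidic hinge protein that lies next to cytochrome c1, was the member of complex III with the highest level and the smallest p-value. Its gene spans chr4:116066965-116075070. Across the thymol libraries it ran from 8.25 to 8.49 log2 CPM with a median of 8.31, and across the DMSO libraries from 8.20 to 8.42 with a median of 8.22. All 6 thymol values lay above the DMSO median, but only 1 lay above the highest DMSO value. The log2 fold change was 0.085 ± 0.056 (SE; 95% interval -0.028 to 0.20, limma adjusted p = 0.616).

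The Rieske protein gene Uqcrfs1 was at 6.05 to 6.29 log2 CPM with thymol (median 6.27) and at 6.17 to 6.43 with DMSO (median 6.35). No thymol value exceeded the DMSO median, and the ranges overlapped. Its log2 fold change was -0.10 ± 0.080 (SE; 95% interval -0.26 to 0.058, limma adjusted p = 0.701). Uqcrq, a small subunit of the membrane part of the complex, was at 8.08 to 8.31 with thymol (median 8.15) and at 7.98 to 8.23 with DMSO (median 8.12), with a log2 fold change of 0.069 (limma adjusted p = 0.729). Here 2 thymol libraries were above all DMSO libraries. The member with the lowest level was Uqcrb, the subunit known as the ubiquinone-binding protein, at 5.58 to 6.13 with thymol and 5.81 to 6.05 with DMSO. The difference of Uqcrb was -0.038 (95% interval -0.23 to 0.15), was 0.12 in the even-numbered libraries alone and changed sign without Thymol100 replicate 5 (0.024). The other subunits were the large core proteins Uqcrc1 and Uqcrc2, whose log2 fold changes were 0.012 and 0.086, and the small membrane subunits Uqcr10 (0.039) and Uqcr11 (-0.023). Each of these 4 had an interval within a 1.2-fold change, and their mean levels lay between 6.03 (Uqcr11) and 7.12 log2 CPM (Uqcr10).

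The 2 cytochromes that hand electrons on differed in level but not measurably between groups. Cyc1, which gives electrons to cytochrome c, was at 6.05 to 6.41 log2 CPM with thymol (median 6.18) and 6.08 to 6.29 with DMSO (median 6.19). Its log2 fold change was 0.0021 (95% interval -0.16 to 0.17, limma adjusted p = 0.998), with a sign that turned under median centring (-0.0088). Cycs, whose product carries electrons between complexes III and IV and triggers caspases when released, was read far less, with 84 to 158 reads per library. Cycs was at 3.73 to 4.16 with thymol (median 4.00) and 3.85 to 4.32 with DMSO (median 4.07). The log2 fold change of Cycs was -0.057 with an interval from -0.38 to 0.26 (limma adjusted p = 0.954), and 0.084 in the even-numbered libraries alone, so that its interval reached beyond a 1.2-fold change.

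**Figure D2:**
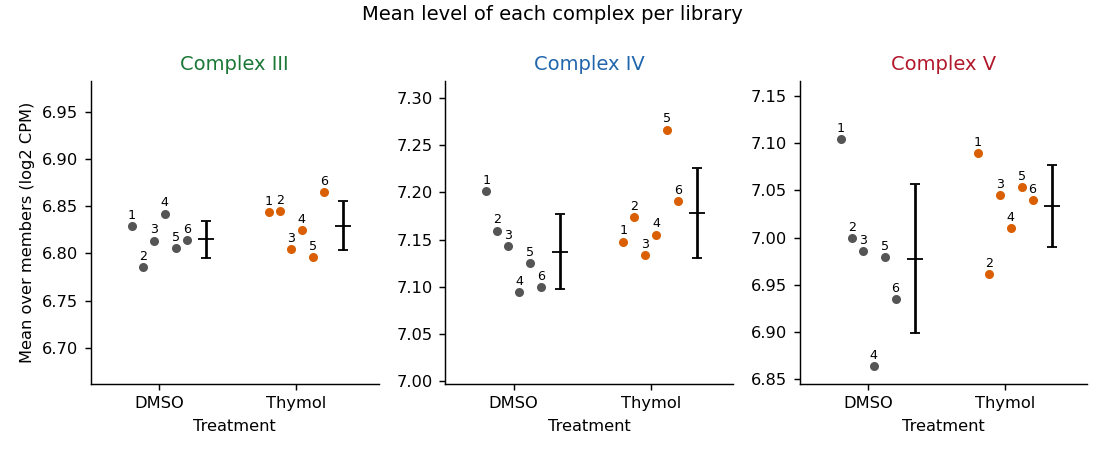
Mean level over the members of complexes III, IV and V in each library (log2 CPM), with replicate numbers beside the points and bars for the mean ± SD of 6 libraries, on axes of equal span. Group means differ by 0.015, 0.041 and 0.055, and in each panel the ranges of thymol and DMSO overlap.

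Complex IV had the highest mean level of the 3 complexes, 7.18 ± 0.048 log2 CPM under thymol and 7.14 ± 0.040 in the controls. The libraries ran from 7.13 to 7.27 with thymol and from 7.09 to 7.20 with DMSO. Thymol100 replicate 5 was the highest of the 12. The share of the summed CPM was 0.271% with thymol and 0.270% with DMSO.

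Cox7b, a small transmembrane subunit whose gene lies on the X chromosome (chrX:106015700-106022450), had the smallest p-value in complex IV. Its level ran from 7.03 to 7.48 log2 CPM with thymol (median 7.31) and from 7.01 to 7.29 with DMSO (median 7.20). In 4 thymol libraries it was above every DMSO library, and in Thymol100 replicate 4 it was near the lowest DMSO value. The log2 fold change was 0.13 ± 0.071 (SE; 95% interval -0.015 to 0.27, limma adjusted p = 0.505).

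Cox5a and Cox6a1 had the next smallest p-values and lay on the other side. Cox6a1, the widely expressed form of subunit VIa and the complex IV gene with the highest level, was at 8.90 to 9.06 log2 CPM with thymol (median 8.98) and 8.99 to 9.10 with DMSO (median 9.06). Its log2 fold change was -0.071 (95% interval -0.17 to 0.028, limma adjusted p = 0.639). Cox5a, a matrix-side subunit, was at 7.92 to 8.07 with thymol (median 8.04) and 7.98 to 8.21 with DMSO (median 8.06), with a log2 fold change of -0.071 (limma adjusted p = 0.709). For each of these genes 1 thymol value was above the DMSO median and 0 were above the highest DMSO value.

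Several complex IV subunits exist in forms used by different tissues, and the table held Cox4i1, Cox6a1, Cox6b1, Cox6b2, Cox7a2 and Cox8a, of which Cox6b2 is the form known from testis. Cox4i1, the widely expressed form of subunit IV and a site of regulation by adenine nucleotides, was at 8.47 to 8.76 log2 CPM with thymol (median 8.53) and 8.51 to 8.61 with DMSO (median 8.54). Its log2 fold change of 0.0083 (95% interval -0.10 to 0.12) turned to -0.0025 under median centring. Cox8a, the widely expressed form of subunit VIII, was at 8.02 to 8.42 with thymol (median 8.21) and 8.11 to 8.39 with DMSO (median 8.23), with a log2 fold change of -0.0064 (95% interval -0.13 to 0.12) that turned to 0.0075 under quantile normalization.

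Cox6b1, which faces the intermembrane space and joins the monomers of the dimer, was at 8.53 to 8.66 log2 CPM with thymol (median 8.56) and 8.42 to 8.62 with DMSO (median 8.58). Its log2 fold change was 0.010 (95% interval -0.094 to 0.11), and -0.00088 under median centring. Cox6b2 was the complex IV gene with the lowest level, with 50 to 92 reads per library, at 3.15 to 3.77 with thymol (median 3.44) and 2.89 to 3.65 with DMSO (median 3.41). The difference of Cox6b2 was 0.12 with an interval from -0.29 to 0.52, and -0.16 in the odd-numbered libraries. Within a library, Cox6b1 exceeded Cox6b2 by 5.12 ± 0.23 on the log2 scale with thymol and by 5.23 ± 0.25 with DMSO, so the proportion of the 2 forms differed by less than its spread.

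Cox7a2 is the widely expressed form of subunit VIIa. Its relative Cox7a2l encodes a factor described as linking complexes III and IV into supercomplexes, and whether it does so in these cells was not measured. Cox7a2 was at 7.85 to 8.05 log2 CPM with thymol (median 7.88) and 7.71 to 7.92 with DMSO (median 7.89), with a log2 fold change of 0.070 (95% interval -0.047 to 0.19). Cox7a2l was at 5.94 to 6.36 with thymol (median 6.18) and 5.87 to 6.22 with DMSO (median 6.07), with a log2 fold change of 0.10 (95% interval -0.070 to 0.28, limma adjusted p = 0.725). Of each gene, 2 thymol values lay above all DMSO values. Cox7a2 exceeded Cox7a2l by 1.75 ± 0.15 with thymol and 1.78 ± 0.20 with DMSO on the log2 scale. The remaining genes of complex IV were Cox5b, the zinc-binding subunit on the matrix side (log2 fold change 0.013), and the small transmembrane subunits Cox6c (0.046) and Cox7c (0.14). Cox7c was read with only 83 to 216 reads per library, at 3.84 to 4.59 with thymol and 3.67 to 4.29 with DMSO, and its interval ran from -0.20 to 0.48.

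Complex V includes a catalytic head in the matrix and a ring in the membrane that turns with the proton flow. It also has a peripheral stalk that holds the head still, and small membrane subunits that shape its dimer. Its 17 genes averaged 7.03 ± 0.043 log2 CPM under thymol and 6.98 ± 0.079 in the controls, a difference of 0.055. The thymol libraries ran from 6.96 to 7.09 and the DMSO libraries from 6.86 to 7.10. DMSO replicate 1 was the highest and DMSO replicate 4 the lowest of all 12, so the control group enclosed the treated one. The 17 genes took 0.336% of the summed CPM with thymol and 0.331% with DMSO.

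The parts of the enzyme are given here by their ranges. The 5 genes Atp5f1a to Atp5f1e had log2 fold changes from -0.038 (Atp5f1b, the catalytic beta subunit) to 0.057 (Atp5f1a, the alpha subunit). The 4 genes of the peripheral stalk (Atp5pb, Atp5pd, Atp5pf and Atp5po) ran from 0.011 to 0.098. The ring and the small membrane subunits, 7 genes in all, ran from -0.10 (Atp5me) to 0.40 (Atp5mg). None of these passed the test.

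Atp5if1 is not a subunit but the inhibitor that binds the head and stops ATP hydrolysis when the proton gradient falls. It had the smallest p-value of the 39. With thymol it was at 8.16, 8.23, 8.24, 8.32, 8.32 and 8.49 log2 CPM (median 8.28), and with DMSO at 7.91, 8.07, 8.09, 8.27, 8.27 and 8.28 (median 8.18). Of the 6 thymol values 3 lay above the highest DMSO value and 5 above the DMSO median, while 3 DMSO libraries lay within the thymol range. Atp5if1 was 10.6% higher with thymol, with a 95% interval from 1.41% to 20.6%, but did not pass after adjustment (log2 fold change 0.15 ± 0.062 SE, limma adjusted p = 0.301). Its difference was 0.11 in the odd-numbered and 0.18 in the even-numbered libraries, and it fell to 0.097 without DMSO replicate 4, its lowest library. Set against Atp5f1b, the subunit it binds, Atp5if1 was lower by 0.42 ± 0.14 on the log2 scale with DMSO and by 0.23 ± 0.091 with thymol. This pair was chosen after its values were seen, so that no test is given, and the ranges overlapped (-0.66 to -0.27 and -0.39 to -0.13).

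Atp5mg, the small membrane subunit g, had the largest log2 fold change of the 39 and the lowest level, with 25 to 133 reads per library. It was at 3.19 to 3.71 log2 CPM with thymol (median 3.54) and at 2.02 to 4.17 with DMSO (median 3.10). Both the highest and the lowest of the 12 values were DMSO libraries, replicate 1 at 4.17 and replicate 4 at 2.02. The log2 fold change of Atp5mg was 0.40 ± 0.24 (SE; 95% interval -0.077 to 0.87, limma adjusted p = 0.548). It was 0.19 without DMSO replicate 4 and 0.62 without DMSO replicate 1, so that these libraries decided its size. Atp5me, the neighbouring subunit e, was at 6.62 to 7.15 with thymol (median 6.84) and 6.81 to 7.09 with DMSO (median 6.96), with a log2 fold change of -0.10 (95% interval -0.26 to 0.062, limma adjusted p = 0.720). For Atp5me it was -0.049 without Thymol100 replicate 4, -0.055 without Thymol100 replicate 3 and -0.15 without Thymol100 replicate 6.

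The ring subunit c is encoded by several genes that give the same mature protein, of which Atp5mc1 and Atp5mc3 were measured. Atp5mc3 had the highest level of all 39, at 9.46 to 9.58 log2 CPM with thymol (median 9.51) and 9.44 to 9.56 with DMSO (median 9.52). Its log2 fold change was 0.0048 with the narrow interval -0.089 to 0.099, and -0.0061 under median centring. Atp5mc1 was at 4.22 to 5.10 with thymol (median 4.74) and 4.38 to 4.81 with DMSO (median 4.59), with a log2 fold change of 0.14 and an interval from -0.14 to 0.42. That of Atp5mc1 was 0.063 without Thymol100 replicate 6 and 0.24 without Thymol100 replicate 2. Atp5mc3 exceeded Atp5mc1 by 4.80 ± 0.31 with thymol and 4.93 ± 0.16 with DMSO on the log2 scale, a difference within the spread of the libraries.

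**Figure D3:**
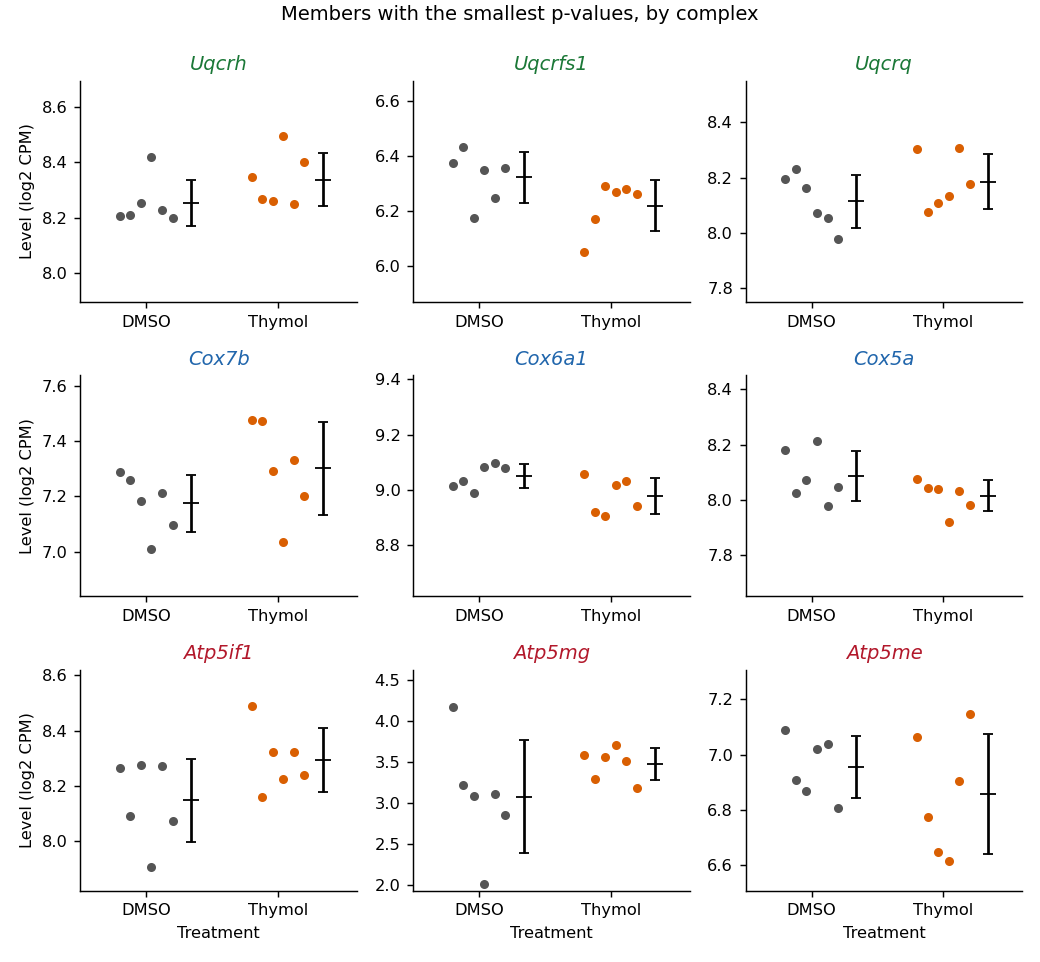
Levels (log2 CPM) in the 6 DMSO and 6 thymol libraries of the 3 genes with the smallest p-values in complexes III (top), IV (middle) and V (bottom), with bars for the mean ± SD; axes have equal span except that of Atp5mg, which is wider. Groups overlap in all 9 panels, where they lay apart for 1.68% of all genes, and the DMSO values of Atp5mg spread from 2.02 to 4.17.

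Reads from near-identical genes set a limit on some levels. Transcripts of 34 members were compared with all other annotated transcripts (GENCODE vM21, GRCm38) over their last 300 bases, where QuantSeq reads fall. For 20 members no stretch of 50 bases recurred in another gene, for 8 up to 30% of the stretches did, and for 6 more than 30%. These were Atp5mg (70.1%), Cox7c (65.2%), Atp5pd (59.2%), Uqcrb (40.6%), Atp5mc1 (36.0%) and Cox6c (34.9%). The other genes mostly carried names of predicted genes or pseudogenes, among them Gm10012 for Cox7c and Atp5l-ps1 for Atp5mg, and for Cox6c it was Cox6c2. Of the 5 members with levels at or below 5, Atp5mg, Cox7c and Atp5mc1 were among the 6, while Cycs and Cox6b2 shared no stretch. These percentages do not say how many reads the 6 genes lost or gained, and the part of sharing in their levels was not tested. Annotated genes on the other strand also overlap the last 500 bases of Cox5a, Cox6c, Uqcrc2 and Uqcrh, and Gm22574 overlaps Cox7c on the same strand, and the strand setting of the counting is not given in the sources used here.

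**Figure D4:**
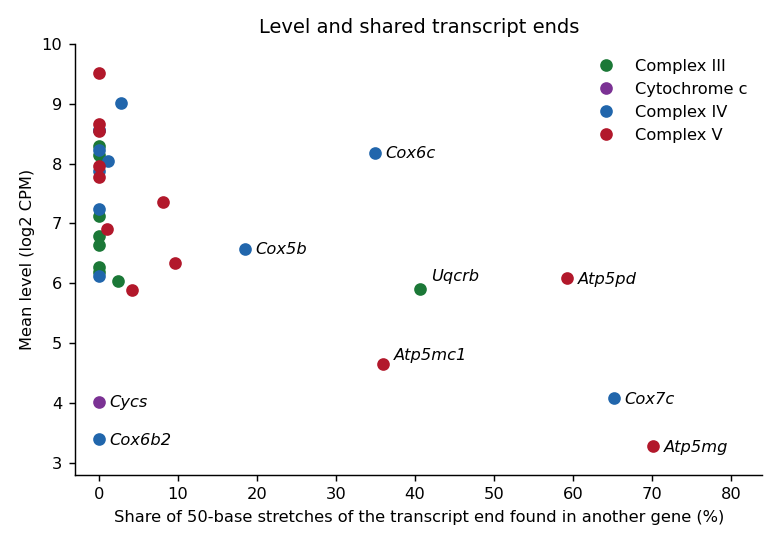
Mean level over the 12 libraries (log2 CPM, vertical axis) against the share of 50-base stretches in the last 300 bases of the transcripts that recur in another annotated gene (percent, horizontal axis), for the 34 members with a matched transcript. Atp5mg (70.1%), Cox7c (65.2%) and Atp5mc1 (36.0%) combine a high share with a level below 5, while Cycs and Cox6b2 are low with a share of 0.

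Factors that assemble these complexes were taken from a list fixed by role, of which 34 of 40 were in the table (8 for complex III, 22 for complex IV, 3 for complex V, and Hccs, which attaches heme to the c-type cytochromes). They were read less than the subunits, with a median level of 5.02 log2 CPM. Of the 34, 0 passed the adjusted threshold in limma or with voom. In limma 2.22% of all genes passed, so that 0 of 34 is near that share. An unadjusted p-value under 0.05 was found for 1 in limma, where 11.8% of all genes had one, and for 0 with voom. With thymol 14 were higher and 20 lower, and the median log2 fold change was -0.033. The 1 gene was Coa6, a copper-handling factor for complex IV, with a log2 fold change of 0.37 (95% interval 0.019 to 0.71, limma adjusted p = 0.378). Coa6 ran from 3.87 to 4.76 log2 CPM with thymol and from 3.53 to 4.28 with DMSO, and the groups overlapped. Tmem242, which helps to build the ring of complex V, differed by -0.13 (limma adjusted p = 0.556) and Coa5, another complex IV factor, by -0.12 (limma adjusted p = 0.559). Higher with thymol were 12 of 22 complex IV factors (median log2 fold change 0.0081), 2 of 8 complex III factors (-0.082) and 0 of 3 complex V factors (-0.089), where 50.9% of all genes were higher, and no gene passed the test.

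Of the mitochondrially encoded subunits that sit in the same enzymes, 2 of 6 were in the table. Of these, 0 passed the test or had an unadjusted p-value under 0.05 in limma or with voom. Over all genes 2.22% passed in limma and 11.8% had an unadjusted p-value under 0.05. mt-Co1, the catalytic subunit of complex IV, was at 9.61 log2 CPM on average and differed by 0.052 (95% interval -0.041 to 0.15, limma adjusted p = 0.753). mt-Cytb, the cytochrome b of complex III, was at 12.99 and differed by -0.037 (95% interval -0.13 to 0.060, limma adjusted p = 0.859). Both intervals lay within a 1.2-fold change.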

How the data were processed

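QuantSeq 3′ mRNA libraries of 6 thymol-treated and 6 DMSO-treated samples labelled as fibroblasts were analysed. The authors aligned reads to GRCm38 with STAR (2.5.3), counted them per gene with HTSeq (0.6.1), dropped genes with few reads, scaled libraries by TMM and tested with edgeR. The values they deposited are log2 CPM for 10697 genes. A prior of about 2 reads draws low genes towards each other. Whole reads were recovered from steps in the low values. In each library, 100% of values under 200 reads lay a whole number of reads above that library's lowest value, within 0.02 reads.

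All genes were fitted with limma 3.58.1 in R 4.3.3 (2 groups, variance trend, two-sided, Benjamini-Hochberg over all genes, threshold 0.05). The fit was tested on simulated data. Intervals are unadjusted. Read counts speak of counting error only. Members, lists and the odd or even split were chosen with earlier results of these data known.

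Genes named with values are members past the threshold, the 3 smallest p-values and the highest and lowest level in each complex, isoform families, Cyc1, Cycs, Atp5if1 and, from the other lists, the 3 smallest p-values. Alternatives covered the replicate block, variance model, scaling, pseudocount, filter, voom and leaving out each library. Sequences are from RefSeq (GRCm38.p6), in which 23 members matched by symbol, 13 by synonym and 3 not at all.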

Additional observations from a re-analysis of the deposited data

Results flagged for a closer look

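Of 56 groups of 6 libraries, covering the named genes and the means by complex, 3 held a library far from the other 5, where chance gives 2.8. Cox6b1 was at 8.42 log2 CPM in DMSO replicate 6, below the next value of 8.58. Uqcrh was at 8.42 in DMSO replicate 4, above the next value of 8.25. The complex IV assembly factor Coa5 was at 6.75 in Thymol100 replicate 4, below the next value of 6.84.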

How the results depend on the processing

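The members past the threshold numbered 0 under all 23 alternatives, as did the assembly factors and the encoded partners. The smallest adjusted p-value of a member was 0.155, for Atp5if1 with the replicate block, and its unadjusted p-value was under 0.05 in 18 of the 23. Correlations between same-numbered libraries ran from -0.051 to 0.27 and were not all above 0.1, so the numbers were not taken as pairs. With the replicate block 332 genes of the table passed, and 2 members had an unadjusted p-value under 0.05. Calls over the table numbered 57 without the variance trend, and 172 to 270 when a library was left out.

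Fits on odd- or even-numbered libraries alone were chosen after seeing the data, and gave 70 and 167 calls. In even-numbered libraries the complex III median was 0.036 and these log2 fold changes changed sign: Atp5mc3 -0.030, Cox4i1 -0.023, Cox8a 0.018, Cycs 0.084, Uqcrb 0.12 and mt-Cytb 0.012. In odd-numbered libraries Cox6b1 was -0.0047, Cox6b2 -0.16 and Cyc1 -0.016. Under median centring Atp5mc3 was -0.0061, Cox4i1 -0.0025, Cox6b1 -0.00088 and Cyc1 -0.0088, under quantile normalization Atp5mc3 was -0.0093 and Cox8a 0.0075, and under voom Cox8a was 4.2e-06. Leaving out 1 library gave -0.0092 to 0.016 for Atp5mc3, -0.031 to 0.027 for Cox4i1, -0.019 to 0.020 for Cox6b1, -0.046 to 0.034 for Cox8a, -0.043 to 0.030 for Cyc1 and -0.085 to 0.024 for Uqcrb. In all, 36 of 570 alternative values for the 25 named genes changed sign, in 9 genes, and the cause was not tested. Leaving out some single library moved the log2 fold change by over 1.5 times in 21 of the 25 named genes. The 5 members at or below 5 log2 CPM had the widest intervals of the 39, and the part of read depth in their spread was not tested.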
